A study of Mus musculus with 8 samples.

Results

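The 6 genes described here, *Josd2*, *Emc10*, *Fam71e1*, *Pold1*, *Nr1h2* and *Myh14*, lie on mouse chromosome 7 within 100 kb of *Mybpc2*, the gene deleted in C2-/- mice. They were chosen by position, from the start and end that the deposited gene table gives for each gene. They are 6 of the 16686 genes of that table with a gene ID and counts. Position alone does not give this set, because the same window holds 10 genes of the table besides *Mybpc2*. *Lrrc4b*, *Spib* and *Napsa* are among them and are given below by their levels.

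RNA was sequenced from the tibialis anterior (TA), a fast-twitch muscle of the lower hindlimb, of 4 WT and 4 C2-/- male mice, with a library for each mouse. Both genotypes were on the FVBN background, and the deposited labels give them an age of 22 months, although a growth note among them gives 2 months. In C2-/- mice, exons 2 to 22 of *Mybpc2* were replaced in the germline by a neomycin resistance (Neo) cassette between LoxP sites, so every cell of the animal carried the change and all mice of this genotype carried the same allele. The comparison of C2-/- with WT muscle around the gene asks whether the neighbours of the replaced segment were expressed at another level in mice that carried the allele.

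*Mybpc2* encodes fast myosin-binding protein C, a thick filament protein of fast-twitch fibres. Its neighbours here share a position and not a pathway, and were chosen with earlier results of these data known. *Emc10* encodes a subunit of the endoplasmic reticulum (ER) membrane protein complex, which inserts membrane proteins into the ER. *Pold1* encodes the catalytic subunit of DNA polymerase delta, *Nr1h2* the oxysterol receptor LXR beta, *Myh14* the heavy chain of non-muscle myosin IIC, and *Josd2* a deubiquitinase of the Josephin family. Genes that sit side by side may share promoter sequence, or may be transcribed from the same strand so that the end of one gene faces the start of the next.

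*Mybpc2* (gene ID 233199, chr7:44501699-44524722 in the table, minus strand) was measured at 4963, 5448, 5099 and 7389 CPM (reads of the gene per 1000000 reads of its library, the library size being scaled by edgeR's TMM factor) in WT mice 1 to 4. In C2-/- mice 1 to 4 it was at 4.35, 4.02, 38.3 and 3.85 CPM. Every C2-/- mouse was far below every WT mouse, and the library labelled C2-/- 3, at 0.67% of the WT mean, stood above the other C2-/- mice. The log2 fold change (C2-/- over WT) was −8.82 ± 0.94 (SE), with an adjusted p of 0.0075 (edgeR quasi-likelihood, Benjamini-Hochberg). In GENCODE vM21 the gene has 28 exons, exons 2 to 22 span chr7:44506808-44522908 (16.1 kb), and 29.1% of the exon bases lie outside that span.

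Libraries held between 25425993 and 29747692 counts, so 3 counts, taken as the smallest number that can be told from 0, correspond to 0.104 to 0.116 CPM. Summed muscle markers (*Acta1*, *Ckm*, *Myh4*, *Myh1*, *Tnnt3*, *Pvalb*) lay between 140000 and 183000 CPM in WT and between 146000 and 163000 CPM in C2-/- mice, so the defining genes of the labelled tissue were abundant in every library. Of 12542 genes tested, 4 were called, that is, changed more than 1.5-fold with an adjusted p under 0.05 (0.0319%), and 663 had an unadjusted p under 0.05 (5.29%). Over all tested genes, 424 (3.38%) had CPM values that did not overlap between the genotypes, and the median log2 fold change was −0.02. In whole muscle, a change in the number of cells of a type and a change of RNA per cell cannot be told apart.

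All 6 genes passed the filter on low counts. *Emc10* was the only one called, with a higher level in C2-/- mice, and none was called lower, beside 0.0239% of all tested genes called higher and 0.00797% called lower. *Emc10* and *Pold1*, both higher in C2-/- mice, were the only ones with an unadjusted p under 0.05, as were 3.38% of all tested genes in that direction and 1.91% in the other. The same 2 genes were the only ones of the 6 with no overlap between the genotypes, beside 2.03% of all tested genes that lay apart with C2-/- higher. Fitted fold changes were above 0 on the log2 scale for 4 genes and below 0 for 2, with a median of 0.06. The other 4 genes had overlapping values in the genotypes.

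The start regions of these genes are shown to let the neighbours be compared by sequence. Each run below gives, from RefSeq (GRCm38.p6), the 250 bases before and the 50 bases from the annotated start of a gene, 5′ to 3′ on the strand of the gene. The first belongs to the deleted gene, the second to *Emc10*, the neighbour that was called, the third to *Pold1*, which had an unadjusted p under 0.05 but was not called, and the last to *Nr1h2*, a neighbour on the same strand with overlapping genotypes. Capitals mark the GC box GGGCGG, or CCGCCC where it stands on the other strand, and the cyclic AMP response element TGACGTCA, which reads the same on both strands.
Mybpc2, chr7:44524620-44524919, minus strand: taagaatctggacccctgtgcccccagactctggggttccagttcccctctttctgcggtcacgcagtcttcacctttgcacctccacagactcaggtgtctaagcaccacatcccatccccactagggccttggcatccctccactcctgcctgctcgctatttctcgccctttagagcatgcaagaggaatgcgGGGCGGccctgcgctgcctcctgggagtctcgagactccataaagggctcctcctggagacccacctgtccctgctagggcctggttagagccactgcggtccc
Emc10, chr7:44496369-44496668, minus strand: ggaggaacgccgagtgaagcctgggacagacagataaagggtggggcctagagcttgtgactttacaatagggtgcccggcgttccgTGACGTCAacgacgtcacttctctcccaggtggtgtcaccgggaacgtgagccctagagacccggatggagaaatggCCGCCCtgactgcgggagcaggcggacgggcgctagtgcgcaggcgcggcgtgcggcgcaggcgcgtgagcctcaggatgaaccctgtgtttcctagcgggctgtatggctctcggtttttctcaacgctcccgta
Pold1, chr7:44548766-44549065, minus strand: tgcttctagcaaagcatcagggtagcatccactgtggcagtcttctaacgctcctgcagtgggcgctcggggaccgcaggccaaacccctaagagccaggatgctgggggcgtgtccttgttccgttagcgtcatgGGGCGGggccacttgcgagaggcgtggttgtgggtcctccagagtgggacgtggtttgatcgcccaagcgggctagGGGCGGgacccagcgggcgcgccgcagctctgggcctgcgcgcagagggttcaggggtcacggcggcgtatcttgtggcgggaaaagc
Nr1h2, chr7:44553916-44554215, minus strand: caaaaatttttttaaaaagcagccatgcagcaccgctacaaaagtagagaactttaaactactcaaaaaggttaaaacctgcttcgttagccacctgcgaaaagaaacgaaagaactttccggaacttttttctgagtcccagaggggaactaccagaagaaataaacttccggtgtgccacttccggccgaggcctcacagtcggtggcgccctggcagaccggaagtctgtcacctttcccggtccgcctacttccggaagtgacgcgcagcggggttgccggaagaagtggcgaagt

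The *Emc10* run held 28 CG dinucleotides and the *Pold1* run 24, against 9 in that of *Mybpc2* and 19 in that of *Nr1h2*. Over 32851 RefSeq windows of the same kind the median was 7, and 85.8% of windows held fewer than *Emc10* and 80.0% fewer than *Pold1*. A GC box stood in 35.7% of all windows, and here once in *Emc10* and *Mybpc2*, at 2 places in *Pold1*, and nowhere in *Nr1h2*. RefSeq also lists a second start of *Emc10*, whose window (chr7:44496464-44496763) overlaps the one printed and holds 3 GC boxes and 25 CG dinucleotides, so these counts depend on the start chosen. The cyclic AMP response element stood in 1.79% of all windows and, among the runs printed, in that of *Emc10* alone. None of these runs held the TATA box TATAAA or the CCAAT box CCAAT on either strand, which 13.6% and 37.4% of all windows did. These matches describe letters and no binding was measured.

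The *Emc10* element lies in sequence shared with *Fam71e1*, which is transcribed in the opposite direction. In GENCODE vM21 the starts of this head-to-head pair are 51 bp apart. The *Emc10* window printed above is set on a RefSeq start other than the GENCODE start. It shares 276 bases with the *Fam71e1* window (chr7:44496345-44496644), which holds the same element. All 6 genes had a RefSeq window. That of *Fam71e1*, which was not called, held 29 CG dinucleotides, the most of the 6 genes, and 87.1% of all windows held fewer. Those of *Josd2* and *Myh14* held 16 and 18 CG dinucleotides, and that of *Myh14* held 4 CCAAT boxes.

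*Emc10* (gene ID 69683, chr7:44489938-44496524, minus strand) was at 45.3, 44.7, 42.3 and 41.7 CPM in WT mice 1 to 4. In C2-/- mice 1 to 4 it was at 94.0, 92.6, 79.4 and 90.6 CPM. The lowest C2-/- mouse was well above the highest WT mouse, and the spread within each genotype was small beside the distance between them. The means were 43.5 ± 1.76 CPM in WT and 89.1 ± 6.65 CPM in C2-/- (SD, n = 4 each), a ratio of 2.05. The log2 fold change was 1.04 ± 0.10 (SE), with a 95% interval from 1.75-fold to 2.40-fold and an adjusted p of 0.00482 (edgeR quasi-likelihood, Benjamini-Hochberg), the third smallest p of all tested genes. Per length, as the authors' TPM (transcripts per 1000000 transcripts), the level was 43.5 ± 2.76 in WT and 93.5 ± 8.3 in C2-/- (SD, n = 4 each).

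*Pold1* (gene ID 18971, chr7:44532744-44553968, minus strand) was at 7.09, 3.32, 5.15 and 5.93 CPM in WT mice 1 to 4. In C2-/- mice 1 to 4 it was at 9.99, 9.70, 9.40 and 9.11 CPM. All C2-/- mice were above all WT mice, and they lay closer together than the WT mice did. The means were 5.37 ± 1.59 CPM and 9.55 ± 0.379 CPM (SD, n = 4 each), a ratio of 1.78. The log2 fold change of 0.83 ± 0.21 (SE), with a 95% interval from 1.29-fold to 2.44-fold, had an unadjusted p of 0.00231 but an adjusted p of 0.571 (edgeR quasi-likelihood, Benjamini-Hochberg), so *Pold1* was not called. It rested on 91 to 184 reads per WT mouse and 261 to 265 per C2-/- mouse. Leaving out WT mouse 2, the lowest, gave 0.66 and leaving out WT mouse 1, the highest, gave 0.99.

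**Figure D1:**
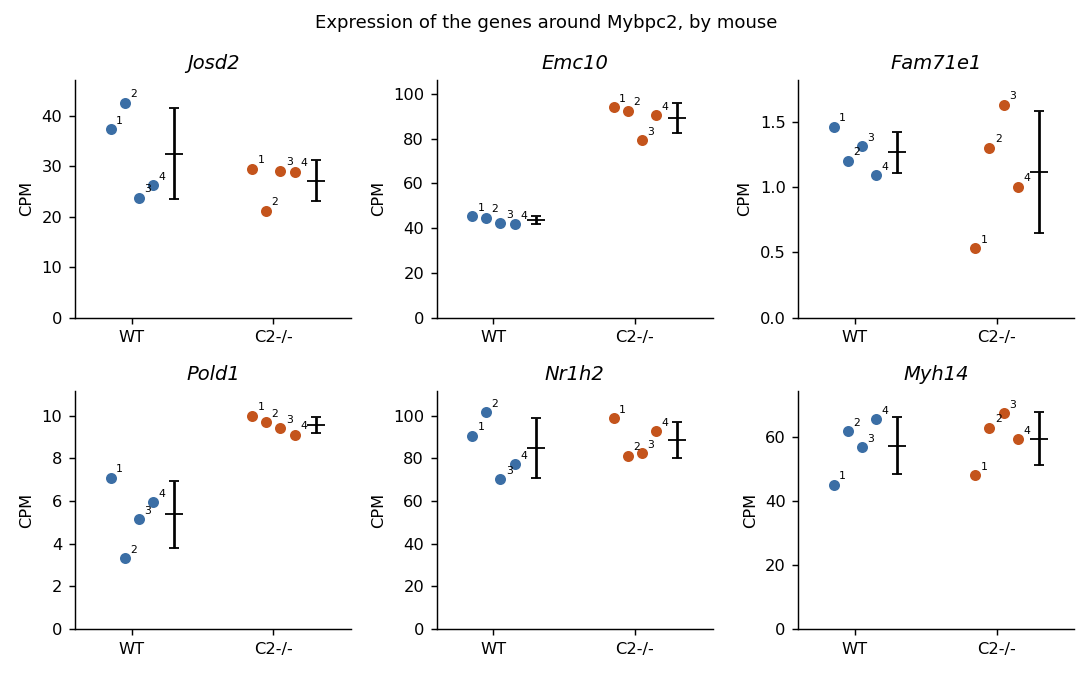
CPM of each of the 6 genes in each mouse (points, numbered by mouse) in WT and C2-/- muscle, with the mean and SD of 4 mice beside them (dash and bar) and each vertical axis starting at 0. *Emc10* (43.5 against 89.1 CPM) and *Pold1* (5.37 against 9.55 CPM) are the panels in which the genotypes do not overlap.

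*Nr1h2* (gene ID 22260, chr7:44549616-44553968, minus strand) was at 90.7, 101.7, 70.2 and 77.3 CPM in WT mice 1 to 4. In C2-/- mice 1 to 4 it was at 98.8, 81.2, 82.5 and 92.7 CPM. All C2-/- mice lay within the WT range, and the log2 fold change was 0.06 ± 0.14 (SE; 95% interval −0.24 to 0.37). The interval that the table gives for *Pold1* covers *Nr1h2* whole, over 4353 bp, whereas GENCODE vM21 leaves 766 bp between these genes. Reads of *Pold1* per read of *Nr1h2* were 0.0782, 0.0326, 0.0734 and 0.0768 in WT mice and 0.101, 0.12, 0.114 and 0.0984 in C2-/- mice. The ratio was nearly the same in WT mice 1, 3 and 4, lower in WT mouse 2 and higher in every C2-/- mouse, and a share of reads common to both genes was not tested.

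*Fam71e1* (gene ID 75538, chr7:44496588-44504266, plus strand) was the least expressed of the 6 genes. It was at 1.46, 1.20, 1.31 and 1.09 CPM in WT mice and at 0.53, 1.30, 1.63 and 1.0 CPM in C2-/- mice, or 14 to 46 reads per mouse. C2-/- mice held both the lowest and the highest value, and the log2 fold change was −0.18 ± 0.34 (SE; 95% interval −0.93 to 0.58). At this depth a change as large as that of *Emc10* in the same direction lies outside this interval, while a rise of 0.58 or a fall of 0.93 on the log2 scale does not. The table lets *Fam71e1* run into *Mybpc2* by 2568 bp on the opposite strand, whereas GENCODE vM21 leaves a gap of 212 bp, and whether reads were counted by strand was not given in the sources used here. The mean of *Fam71e1* was 1.26 ± 0.161 CPM in WT and 1.12 ± 0.468 CPM in C2-/- mice (SD, n = 4 each).

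*Josd2* (gene ID 66124, chr7:44467980-44471658, plus strand) was at 37.4, 42.6, 23.8 and 26.3 CPM in WT mice. In C2-/- mice it was at 29.5, 21.2, 29.1 and 28.9 CPM. The genotypes overlapped, WT mice 1 and 2 being the highest and C2-/- mouse 2 the lowest. The log2 fold change was −0.26 ± 0.20 (SE; 95% interval −0.70 to 0.18).

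*Myh14* (gene ID 71960, chr7:44605803-44678235) was the farthest from *Mybpc2* of the 6 genes. It was at 45.0, 61.6, 56.7 and 65.4 CPM in WT mice and at 48.0, 62.8, 67.3 and 59.2 CPM in C2-/- mice. Mouse 1 of each genotype was its lowest, the genotypes overlapped, and the log2 fold change was 0.05 ± 0.15 (SE; 95% interval −0.28 to 0.38). The table puts *Myh14* on the plus strand, and both GENCODE vM21 and RefSeq put it on the minus strand, which is used here.

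Per length, the order of the WT levels was *Nr1h2* (76.8 TPM), *Josd2* (65.9 ± 14.0), *Emc10* (43.5 ± 2.76), *Myh14* (15.8), *Pold1* (2.85 ± 0.88) and *Fam71e1* (1.65). *Nr1h2* and *Josd2* differed by less than the SD of *Josd2*, and each later pair of neighbours in this order was farther apart than either of its SDs. In C2-/- muscle *Emc10*, at 93.5 ± 8.3 TPM, was listed above *Nr1h2* at 84.9 TPM and *Josd2* at 58.8 ± 6.93 TPM. The difference between *Emc10* and *Nr1h2* in C2-/- mice was about the size of their SDs.

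Some other genes of the window had few reads. *Spib*, a transcription factor gene of B cells and plasmacytoid dendritic cells, had 0 to 8 reads per mouse, *Lrrc4b* 2 to 6 and *Napsa* 2 to 11. These levels were at or near the 3 counts that can be told from 0, the filter removed these genes, and no change could be detected in them at this depth. Just beyond 100 kb stood *Syt3* at 101.7 kb, with a log2 fold change of 0.10 ± 0.24 (SE).

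Distances between the intervals of the table set the genes in order from *Mybpc2*. *Fam71e1* touched it, *Emc10* stood at 5.2 kb, *Pold1* at 8.0 kb, *Nr1h2* at 24.9 kb, *Josd2* at 30.0 kb and *Myh14* at 81.1 kb. *Emc10*, which was called, lies past the 3′ end of *Mybpc2*, and *Pold1*, which was not, lies past its 5′ end. Both are transcribed from the minus strand, as *Mybpc2* is, and each is the nearest tested gene of that strand on its side. *Spib* lies nearer on the 5′ side, at 1.3 kb, and was too low to test.

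*Fam71e1*, on the plus strand, was nearer than either, and *Nr1h2*, on the minus strand, is the next gene beyond *Pold1*, and both had unadjusted p-values over 0.05. The replaced span of exons 2 to 22 lies 10.3 kb from *Emc10* and 9.8 kb from *Pold1* in GENCODE vM21. Over the 6 genes, Pearson's r between the log2 fold change and the distance was −0.35 and Spearman's rho −0.31. With distances between start sites, r was −0.32 and rho −0.55. These are descriptions over 6 neighbours measured in the same mice, and given no p.

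**Figure D2:**
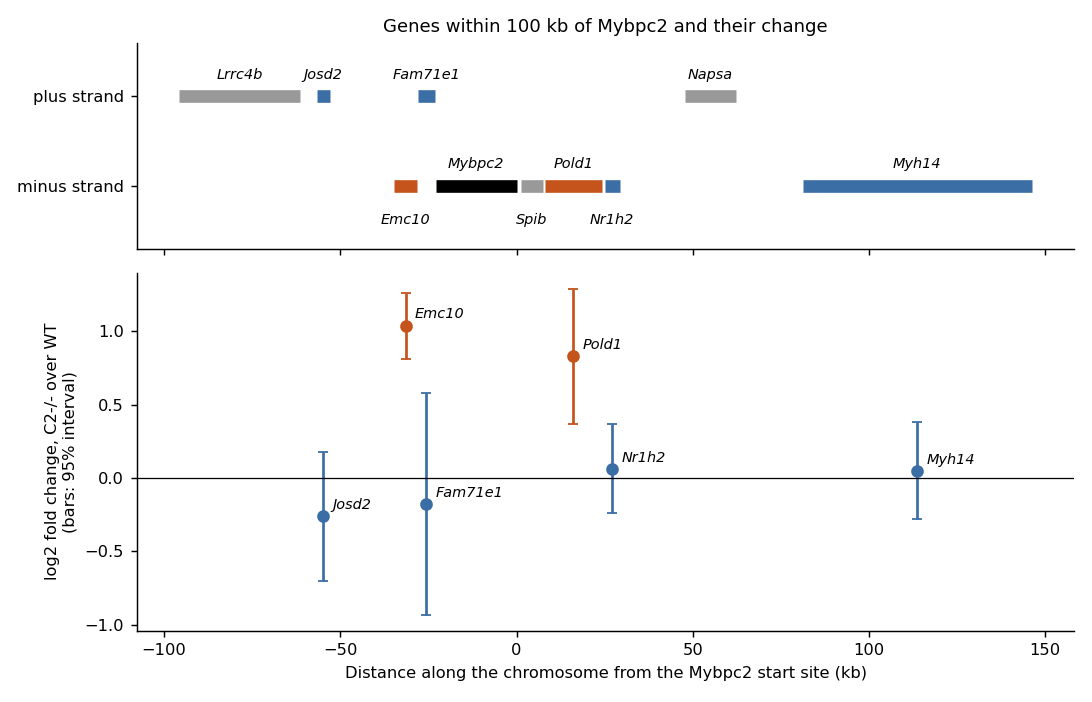
Upper panel: the genes named here within 100 kb of *Mybpc2* by GENCODE vM21, by strand and by distance in kb from its start site (black, *Mybpc2*; orange, *Emc10* and *Pold1*; blue, the other 4 of the 6 genes; grey, *Lrrc4b*, *Spib* and *Napsa*). Lower panel: log2 fold change of each of the 6 genes at its midpoint, with 95% intervals. Those of *Emc10* (0.81 to 1.26) and *Pold1* (0.37 to 1.29) lie above 0, and the others include 0.

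Farther along chromosome 7 no gene was called. Within 100 kb, 2 of 7 tested genes had an unadjusted p under 0.05 (28.6%), against 1 of 23 between 100 and 500 kb (4.35%), 3 of 33 between 500 kb and 1 Mb (9.09%) and 1 of 30 between 1 and 2 Mb (3.33%). Between 2 and 5 Mb there was none among 18, between 5 and 10 Mb there were 5 of 27 (18.5%), and on the rest of the chromosome 40 of 827 (4.84%), beside 5.29% of all tested genes. The share did not fall steadily with distance, and the share within 100 kb rests on *Emc10* and *Pold1*.

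Medians of the log2 fold change lay between −0.08 and 0.08 in all of these distance classes. Of the genes between 100 kb and 2 Mb with an unadjusted p under 0.05, *Rcn3*, which encodes a calcium-binding protein of the ER, stood at 558.2 kb. It went from 6.97 ± 1.95 CPM in WT to 11.7 ± 0.756 CPM in C2-/- mice (SD, n = 4 each) without overlap, with a log2 fold change of 0.74 ± 0.21 (SE) and an adjusted p of 0.63 (edgeR quasi-likelihood, Benjamini-Hochberg). *Aldh16a1*, at 617.1 kb, had a log2 fold change of 0.35 ± 0.13 (SE). Those of *Hsd17b14* (−1.12 ± 0.34, 1030.1 kb), *Slc17a7* (−1.13 ± 0.44, 639.2 kb) and *Klk1b26* (−0.66 ± 0.26, 484.7 kb) were below 0. None of these 5 genes was called.

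**Figure D3:**
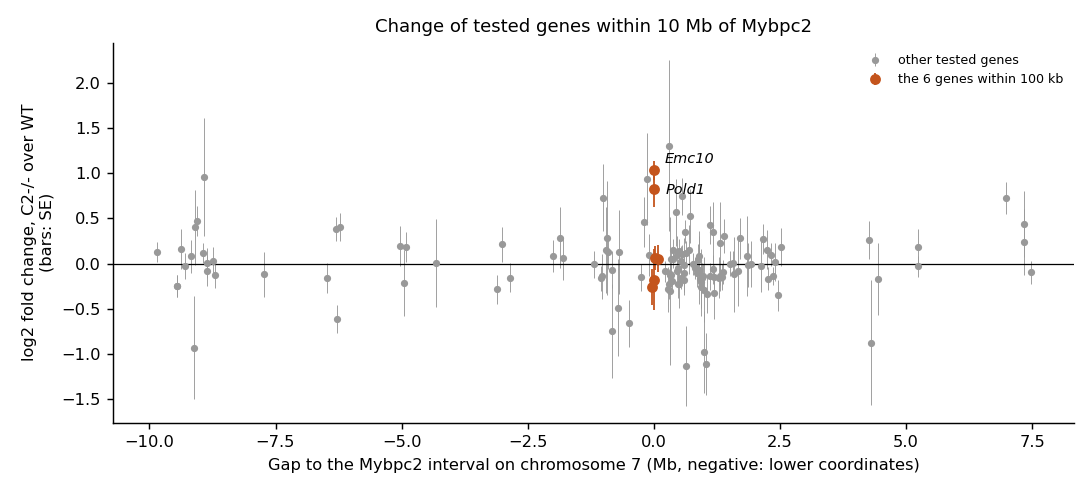
Log2 fold change (C2-/- over WT, bars: SE) of tested genes within 10 Mb of *Mybpc2* against the gap to it in Mb, with the 6 genes in orange and other genes in grey. *Emc10* (1.04) and *Pold1* (0.83) stand above 0 with bars of 0.10 and 0.21, and the other points that are farther from 0 than *Pold1* carry longer bars than either.

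The genes that act with *Emc10* stayed near 0. Of the other 9 genes of the ER membrane protein complex, all tested, 3 had fold changes above 0 and 6 below it on the log2 scale, from −0.18 to 0.08 with a median of −0.09, and none had an unadjusted p under 0.05. *Emc4* (126 TPM in WT), *Emc6* (117) and *Emc2* (99.3) were the most expressed, with log2 fold changes of −0.16 ± 0.10, −0.15 ± 0.13 and −0.10 ± 0.15 (SE). *Emc10* reads made up 11.1%, 10.4%, 11.4% and 10.4% of the summed reads of the other 9 genes in WT mice, and 25.3%, 24.2%, 20.2% and 24.7% in C2-/- mice. By mean TPM, *Emc10* was the sixth of the 10 genes in WT and the fourth in C2-/- muscle.

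No partner of *Pold1* was called. Among 19 other genes of the replicative polymerases, primase, clamp, clamp loader and the flap and nick enzymes, 9 were above 0 and 10 below it, with a median of 0.00 and none at an unadjusted p under 0.05. The other 3 subunits of polymerase delta had log2 fold changes of −0.23 ± 0.14 (*Pold2*), −0.14 ± 0.20 (*Pold3*) and 0.04 ± 0.18 (*Pold4*, SE). That of *Pcna*, the sliding clamp that holds this polymerase on DNA, was −0.13 ± 0.19. The widest was *Pole2*, at 0.72 ± 0.73, with under 1 CPM in each mouse. Per length, *Pold2* (59.0 TPM), *Pole4* (24.2) and *Pold4* (23.3) led the list in WT, and *Pold1* at 2.85 ± 0.88 TPM was far below its partner *Pold2*.

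**Figure D4:**
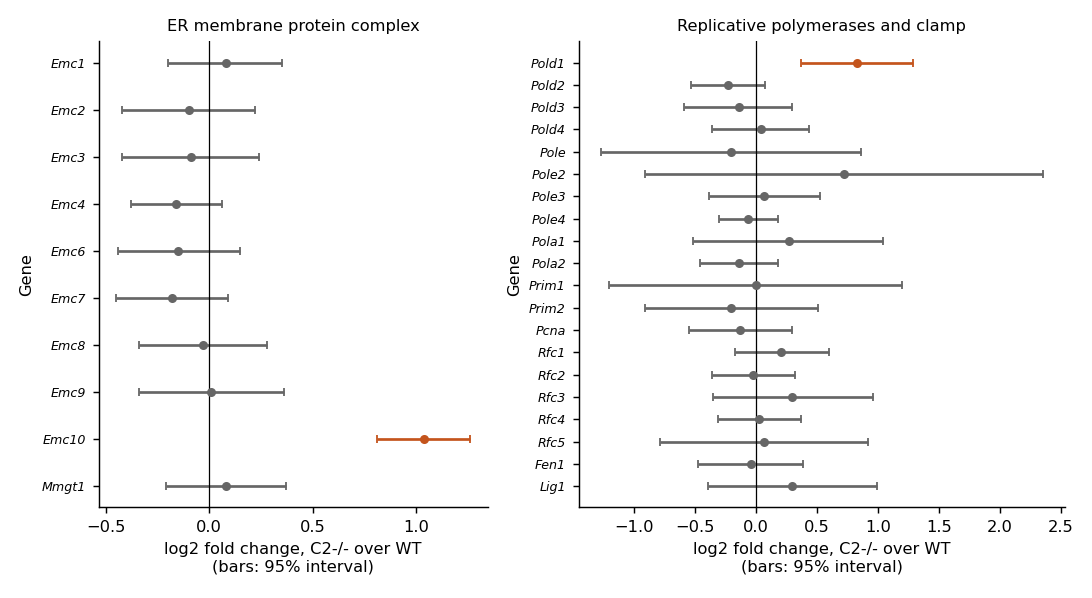
Log2 fold change (C2-/- over WT) with 95% intervals of the genes of the ER membrane protein complex (left) and of the replicative polymerases with their clamp (right); *Emc10* and *Pold1* are in orange. The other 9 genes on the left lie between −0.18 and 0.08, and the other 19 on the right between −0.23 and 0.72 with intervals that include 0.

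The genes related to the other neighbours were without a call as well. Of 17 partners and targets of the LXR receptors in the table and tested besides *Nr1h2*, 8 were above 0 and 9 below, with a median of −0.01 and none at an unadjusted p under 0.05. *Lpl* (158 TPM in WT), *Rxra* (114) and *Apoe* (101) were the most expressed, and the target *Srebf1*, a regulator of lipid synthesis, had the log2 fold change farthest from 0, −0.54 ± 0.26 (SE). Of 9 other genes of non-muscle myosin II and its kinases, led by *Myl12a* (340 TPM), *Myl6* (113) and *Myl9* (49.5), 7 were above 0 and 2 below, with a median of 0.14 and none at an unadjusted p under 0.05. The Josephin relatives *Josd1* and *Atxn3* were at −0.10 ± 0.14 and −0.09 ± 0.26 (SE). Of the Fam71 family, 4 of 7 genes were in the table and *Fam71e1* alone passed the filter.

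Some markers of other cells differed between the genotypes at an unadjusted p under 0.05, and none of the markers was called. The summed fibro-adipogenic markers (*Pdgfra*, *Dcn*, *Col1a1*, *Lum*) lay between 271 and 365 CPM in WT and between 399 and 494 CPM in C2-/- mice without overlap, as *Emc10* and *Pold1* did, and 2 of the 4, *Dcn* and *Col1a1*, had an unadjusted p under 0.05. Of the other lists examined, *Myh7* and *Myl2* among 4 slow fibre genes were lower, and *Tnmd* of the tendon list and *Cd79a* of the B cell list were higher at an unadjusted p under 0.05. The sums of these 3 lists overlapped between the genotypes. Slow fibre sums were 4.01 to 31.1 CPM in WT and 1.97 to 6.55 CPM in C2-/- mice. Tendon sums were 58.0 to 170 CPM and 89.6 to 235 CPM. B cell sums were low, at 0.219 to 0.655 CPM and 0.177 to 3.37 CPM, and 1 of 3 genes was tested. Markers of macrophages, endothelium, Schwann cells, adipocytes and smooth muscle and the immediate early genes had none at an unadjusted p under 0.05. The part of these cells in the change of *Emc10* and *Pold1* was not tested.

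Summed markers of cycling cells (*Mki67*, *Top2a*, *Ccnb1*, *Cdk1*), in which *Pold1* is needed for DNA replication, were at 0.193 to 0.875 CPM in WT and at 8.4, 0.595, 0.851 and 0.381 CPM in C2-/- mice 1 to 4. C2-/- mouse 1 stood apart and the other C2-/- mice were within the WT range. The part of cycling cells in the *Pold1* values was not tested. Without C2-/- mouse 1, the log2 fold change of *Pold1* was 0.81. Without C2-/- mouse 3, the one with more *Mybpc2* reads, those of *Emc10* and *Pold1* were 1.09 and 0.84.

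Across the whole table, the genes whose log2 CPM followed *Emc10* most closely over the 8 mice were *Ahcy* (r = 0.977), *Eif3j1* (0.974) and *Sec23b* (0.958), all on chromosome 2. Each of them also separated the genotypes, with log2 fold changes of 4.41, 5.53 and 0.93, so these correlations reflect 2 clusters of 4 mice. *Ahcy* and *Eif3j1* were called as well, with adjusted p-values of 0.000763 and 0.000291 (edgeR quasi-likelihood, Benjamini-Hochberg), and *Sec23b* was not. *Ahcy* and *Eif3j1* have close copies elsewhere in the mouse genome, and how far this makes their own counts uncertain was not tested. For *Pold1* they were *Lrrc1* (0.990), *1600014C10Rik* (0.980) and *Ampd2* (0.970), which also did not overlap between the genotypes and were not called. *Lrrc1* lies on chromosome 9, *Ampd2* on chromosome 3, and *1600014C10Rik* on chromosome 7, between 5 and 10 Mb from *Mybpc2*.

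The genes nearest in pattern to the other neighbours did not separate the genotypes. They were *1110038F14Rik* (0.983), *Dxo* (0.979) and *Slc9a3r2* (0.978) for *Josd2*, and *Cdo1* (0.950), *Csf2rb* (0.948) and *Cd59a* (0.916) for *Fam71e1*. For *Nr1h2* they were *Spcs1* (0.991), *Rab8a* (0.963) and *Cdkn2d* (0.957), and for *Myh14* *Eftud2* (0.982), *Prdm15* (0.980) and *Bod1l* (0.968). All were picked as the highest over the whole table and rest on the same 8 libraries, so they are given as a description.

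Under all 16 other settings of scaling, filter, test, block or mice, *Emc10* was called, with log2 fold changes from 1.02 to 1.09. *Pold1* had an unadjusted p under 0.05 and was not called in any of them, with log2 fold changes from 0.66 to 0.99. *Josd2* stayed below 0, from −0.37 to −0.10, while the direction of *Fam71e1*, *Nr1h2* and *Myh14* turned when a single mouse was left out, to 0.06, −0.01 and −0.05 at the most.

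**Figure D5:**
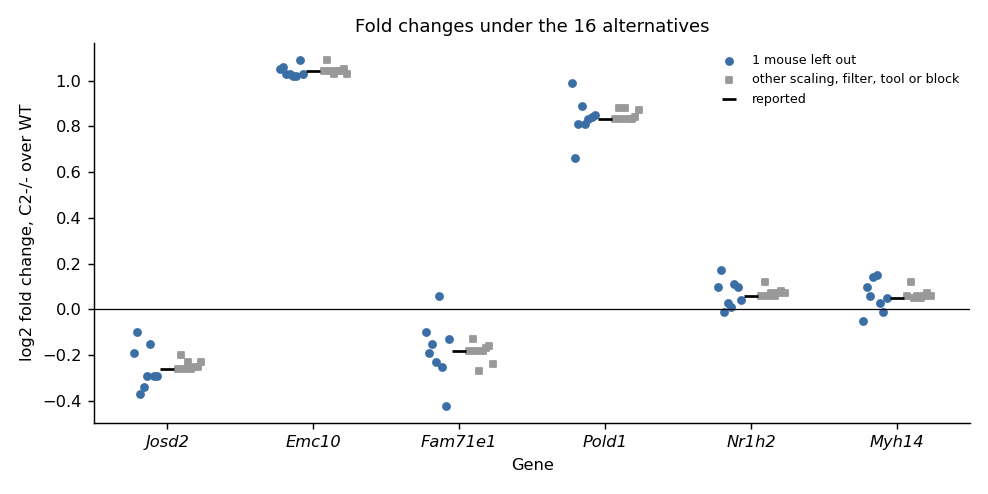
Log2 fold change (C2-/- over WT) of each of the 6 genes as reported (black dash), with 1 mouse left out (blue) and under another scaling, filter, test or a replicate block (grey squares). *Emc10* stays between 1.02 and 1.09 and *Pold1* between 0.66 and 0.99, and *Fam71e1*, *Nr1h2* and *Myh14* have points on both sides of 0.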

How the data were processed

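The authors deposited 1 table of genes by mouse. Its expected counts, estimated by the authors and not normalized, and its TPM, scaled by the authors for transcript length, were used. Between 5.5% and 6.53% of count values per mouse were not whole, and counts were rounded. The authors' notes name HISAT, Bowtie2 and DESeq2 with GRCm38.p6, and the methods name featureCounts. Columns with the fold change, p-value and q-value of the authors' own comparison, and 8 other columns of values per mouse, were not used.

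CPM are counts per 1000000 of the library total times its TMM factor. The test was quasi-likelihood (edgeR 4.0.16 under R 4.3.3) on 4 C2-/- against 4 WT mice, with TMM factors (0.9291 to 1.035), the default filter on low counts and Benjamini-Hochberg adjustment over 12542 genes of 16686. Calls needed a fold over 1.5 and an adjusted p under 0.05. The paper's methods name this fold and put the word adjusted in parentheses. Its figure legend for these mice names a log-transformed cut of 0.5 with an adjusted p. SE are the fold change over the root of F. Alternatives were RLE factors, library size alone, *Mybpc2* left out of library sizes, limma-voom (limma 3.58.1), DESeq2 1.42.0, other filters, a replicate block, a log2 threshold of 0.5 and leaving out each mouse. Script results were checked on simulated counts. The 95% intervals come from the fit and include the spread between mice, and the floor of 3 counts covers counting error only. Numbers came from labels that do not say that mice of the same number belong together.

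The neighbours, the lists of partners and markers and the rule for named genes (genes of the window, of which 1 is not reported here, partners by p and by TPM, genes by p out to 2 Mb, the 3 genes nearest in pattern) were chosen with earlier results of these data known. Distances used the table's coordinates, exons and strands GENCODE vM21, and promoters RefSeq GRCm38.p6. Gene symbols of 25 rows were restored from gene IDs.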

Additional observations from a re-analysis of the deposited data

Results flagged for a closer look

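Of 22 sets of 4 mice screened (each gene of the window and *Mybpc2*, in each genotype), 3 held a mouse whose gap to its nearest neighbour, divided by the range of the set, was over Dixon's 95% critical value for 4 samples. Chance gives about 1 in 20. *Mybpc2* in C2-/- mouse 3 was at 38.3 CPM, against 3.85 to 4.35 CPM in the other C2-/- mice (gap over range 0.985), and this remained under 1% of the WT mean. *Josd2* in C2-/- mouse 2 was at 21.2 CPM, against 28.9 to 29.5 CPM (0.926). *Lrrc4b* in C2-/- mouse 4 was at 0.208 CPM, or 6 reads, against 0.106 to 0.114 CPM (0.93), or 3 reads each, which is within the error of so few reads. No mouse of either genotype stood apart in this way for *Emc10* or *Pold1*.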

How the results depend on the processing

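*Emc10* was called under all 16 alternatives, with an adjusted p from 7.37e-18 (DESeq2) to 0.0453 (replicate block) and a log2 fold change from 1.02 to 1.09, and also with a log2 threshold of 0.5. *Pold1* had an unadjusted p under 0.05 in all 16 and an adjusted p from 0.0759 (DESeq2) to 0.99, and was called in none. The number of the 6 genes called stayed at 1, and the number with an unadjusted p under 0.05 at 2, under each of them. With start-to-start distances, 2 genes of 6 tested within 100 kb had an unadjusted p under 0.05. That window does not hold the same 6 genes, because *Myh14* is then at 146.2 kb. Genes whose fold change turned were far from the threshold under every setting. *Myh14* was at −0.05 without WT replicate 1 and at −0.01 without C2-/- replicate 3 (range with 1 mouse left out −0.05 to 0.15), *Nr1h2* was at −0.01 without WT replicate 3 (−0.01 to 0.17), and *Fam71e1* was at 0.06 without C2-/- replicate 1 (−0.42 to 0.06); fewer mice entered each of these fits. *Mybpc2* ranged from −10.46 to −8.52.

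Over all genes, the reported fit called 4 of 12542. DESeq2, run on 16668 genes with its own default filtering in place of the filter on low counts, called 30. The reported test without that filter on low counts called 5, and 7 were called without WT replicate 2. Library size alone called 6 and shifted the median log2 fold change to 0.04. The cause was not tested. The genotypes carry the same replicate numbers. Mice of the same number deviated from their group means with correlations of 0.27, 0.04, −0.05 and 0.02, so the numbers were not taken to pair the mice. With the number as a replicate block, *Emc10* was at 1.03, *Pold1* at 0.87 (adjusted p 0.561 by edgeR), *Josd2* at −0.23 and the count of the 6 genes called at 1. Depth limits *Fam71e1* most, and *Spib*, *Lrrc4b* and *Napsa* could not be tested.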
